A study of Mus musculus with 18 samples.

Results

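Ribosome occupancy (ribo ocp) is the amount of ribosome footprints on an mRNA divided by the amount of that mRNA, and its change after 1 h of cyclopiazonic acid (CPA) is described here for MIN6 cells, a mouse insulinoma line used as a model of pancreatic β-cells. CPA blocks the pump that fills the endoplasmic reticulum (ER) with calcium. Control cells had the vehicle DMSO for 18 h, CPA1 cells had the drug at 200 µM for 1 h, and CPA18 cells had the same dose for 18 h. Each treatment gave 1 poly(A) mRNA-seq and 1 Ribo-seq library in each of 3 independent experiments. All groups come from 1 cell line without a transgene or genetic change of the study's own, and control cells spent longer in vehicle than CPA1 cells did in drug, so drug and length of treatment cannot be told apart. The change was taken within each experiment as the ratio of Ribo-seq to mRNA-seq in CPA1 over the same ratio in control, which uses 12 of the 18 libraries. RefSeq transcripts were summed to genes, and 7790 genes, those with 1 or more reads in every one of the 18 libraries, were kept out of 17176 with any read. The choice of libraries and genes used no difference between treatments.

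A ribosome needs the initiation factor eIF2 to bring the first methionyl-tRNA. Under ER stress the kinase PERK phosphorylates eIF2, which lowers initiation on most mRNAs, while mRNAs with particular upstream open reading frames (uORFs) in the 5′ leader, such as Atf4, are then read at their main coding sequence. A separate group, the 5′ terminal oligopyrimidine (TOP) mRNAs, starts with a C followed by a run of pyrimidines and encodes ribosomal proteins and translation factors, and initiation on these mRNAs depends on the growth-regulating kinase mTORC1. Sequencing gives each mRNA's share of the footprints, so a fall that all mRNAs had in common does not show in these values.

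Control and CPA1 libraries held between 520960 and 2408123 counts in mRNA-seq and between 392613 and 1083297 in Ribo-seq. All 9 β-cell markers had reads in all 4 groups of these libraries, with Ins1 and Ins2 alone at 6.38% to 21.1% of a library. The 4 markers of other islet cells summed to between 39.7 and 241 RPKM per library, most of it from Gcg, the glucagon gene. The 5 acinar markers summed to at most 1.2 RPKM per library. The transcript of Lars2, the mitochondrial leucyl-tRNA synthetase, took 45.1%, 7.19% and 15.1% of the control mRNA-seq counts in experiments 1, 2 and 3 and 53.5%, 38.1% and 8.27% of the CPA1 mRNA-seq counts, but at most 1.68% of a footprint library. Amounts were therefore scaled by TMM (trimmed mean of M-values), in which 1 such transcript has little weight. Read numbers of single genes given below are not scaled. Ribo-seq totals in experiments 1, 2 and 3 were 821147, 929649 and 1083297 in control and lower in CPA1, at 519309, 392613 and 470602. The control mRNA-seq library of experiment 1 stood apart: over genes, its log2 amounts had a mean correlation of 0.749 with the 6 mRNA-seq libraries and of 0.775 with the 6 Ribo-seq libraries of the other experiments. The control libraries of experiment 2 carry opposite assays in title and description. Placed by title, the mRNA-seq one had a mean correlation of 0.851 with mRNA-seq and 0.695 with Ribo-seq libraries of the other experiments, and the Ribo-seq one 0.71 and 0.884.

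Selected uORFs of 4 mRNAs on which the results turn are shown first, each as the start codon in capitals with 6 bases on either side, in the 5′ leader of the RefSeq transcript with the most control mRNA-seq reads (RefSeq annotation of GRCm38.p6). In Atf4 the starts lie at chr15:80255582-80255584 (plus strand), which opens a reading frame of 3 codons, and at chr15:80255681-80255683, which opens one of 59 codons that runs past the main start codon. In Atf5 (minus strand) the start at chr7:44815499-44815501 opens 63 codons that also overlap the main start. In Ddit3 (plus strand) the start at chr10:127290829-127290831 opens 34 codons, and in Ppp1r15a (minus strand) the start at chr7:45526087-45526089 opens 26 codons, both of which end before the main start.
Atf4, frame of 3 codons: gccaccATGgcgtat
Atf4, overlapping frame: taagccATGgcgctc
Atf5, overlapping frame: atttttATGaagagg
Ddit3: tatatcATGttgaag
Ppp1r15a: ggcgacATGaacccg

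After 1 h of CPA, ribosome occupancy rose for 8 genes and fell for 12, which is 20 of 7790 genes (0.257%, with 0.103% rising and 0.154% falling). The test was the interaction of assay and treatment in edgeR's quasi-likelihood fit over all 18 libraries with the experiment as a block, at a Benjamini-Hochberg adjusted p under 0.05 over all genes. The rises held 3 mRNAs of the uORF list, namely Atf4, Atf5 and Ddit3, and the falls held 5 ribosomal protein genes and 4 other TOP mRNAs of the lists, together with Rps3a1, a small-subunit protein whose symbol the list's pattern missed. All 20 genes had the same sign in the 3 experiments, and none was below 1.05 in size on the log2 scale. All 12 that fell had their 3 CPA1 occupancies below the 3 control values, against 3.13% of all genes, and 6 of the 8 that rose had theirs above, against 4.09%. The genes were called on these same values, so their shared sign and separation describe the calls and are no separate support for them. Footprints rose for all 8 of the first kind and fell for all 12 of the second, whereas 2 of the 20, Atf4 and Ddit3, passed the mRNA test. Smaller mRNA changes of the others are not excluded.

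**Figure D1:**
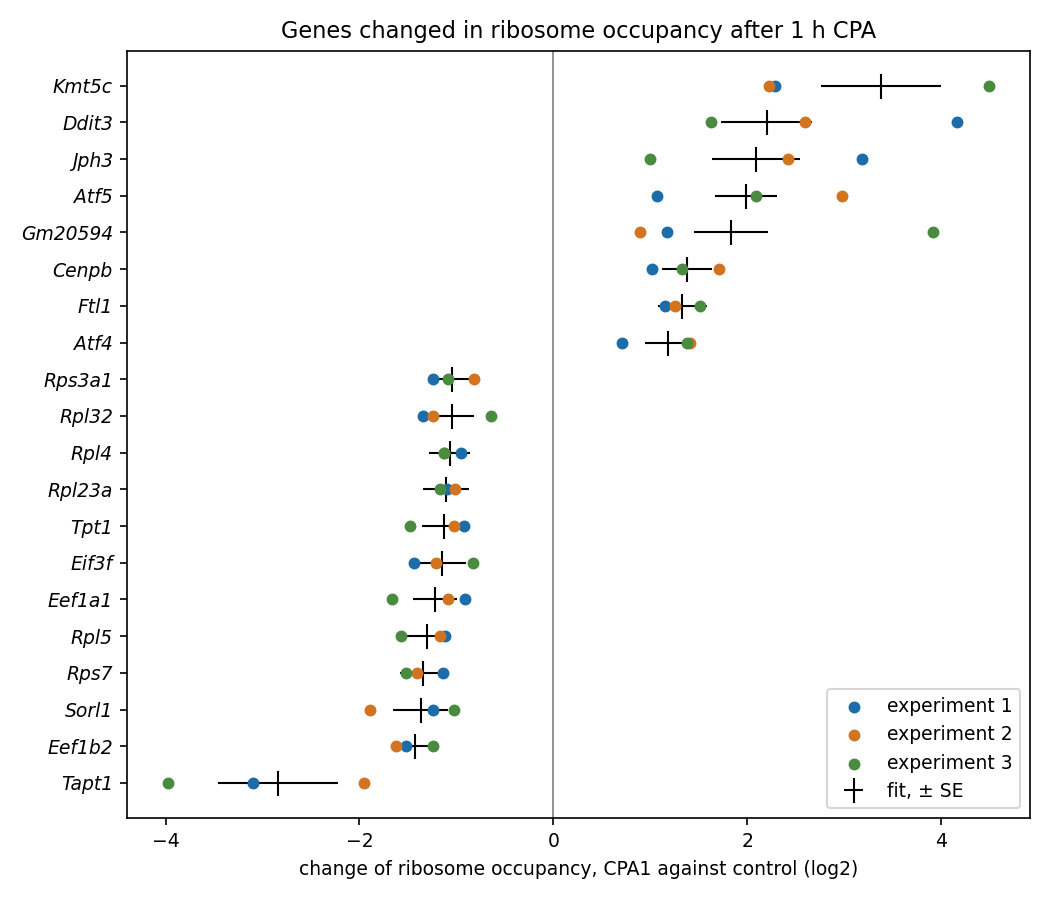
Change of ribosome occupancy (log2, CPA1 against control) for the 20 genes called, with 1 point per experiment and the fitted value with its standard error as a bar. The falls lie mostly between -1 and -1.5 with close experiments, and the rises reach 3.38 for Kmt5c and spread more widely.

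These calls rest on few libraries. Without experiment 1 edgeR called 0 genes (592 at an unadjusted p under 0.05, and 655 with all experiments), without experiment 2 it called 3, of which 2 were among the 20, and without experiment 3 it called 21, of which 6 were. Leaving out the control mRNA-seq library of experiment 1 gave 11 calls, 10 of them among the 20, and leaving out that of experiment 2 gave 11, all among the 20. With library totals in place of TMM, 7 genes rose and 0 fell, and the median change of all genes moved from 0.05 to 0.16 (log2). With totals without Ins1, Ins2 and Lars2, 7 rose and 22 fell, 19 of these 29 among the 20. The fitted change of each of the 20 genes kept its sign in all alternatives that gave a value for it.

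Across all genes the 3 experiments resembled each other little. The change in 1 experiment correlated with that in another at Pearson's r of 0.0352, 0.0245 and 0.0518 for experiments 1 and 2, 1 and 3, and 2 and 3, over 7790 genes that share libraries and are no independent replicates. In all 3 experiments, 14.4% of genes were above control and 14% below it. At an unadjusted p under 0.05, 4.93% of genes were higher and 3.48% lower. A difference of at least 2-fold in every experiment was seen upward for 0.719% of genes and downward for 0.359%.

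Among the uORF-controlled mRNAs, the transcription factor genes Atf4, Atf5 and Ddit3 gained footprints beyond their mRNA. Atf4, the main effector of the response to eIF2 phosphorylation, had occupancies of 0.667, 0.502 and 0.432 in the control of experiments 1, 2 and 3 and of 1.09, 1.34 and 1.12 in CPA1. All 3 CPA1 values lay above the control values. Its occupancy rose 2.27-fold (log2 1.18 ± 0.24 SE, n = 3 experiments, edgeR adjusted p = 0.0256), on top of a rise of its mRNA by 1.54 (adjusted p = 1.71e-06), so that its footprints rose by 2.72 (log2, adjusted p = 1.2e-10). The occupancy change of Atf4 was called in 7 of 17 alternatives and not, among others, without the control mRNA-seq library of experiment 2 (edgeR adjusted p = 0.0597) and without any 1 experiment, with log2 changes between 1.05 and 1.37 throughout.

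Atf5, a related transcription factor, rose from occupancies of 0.298, 0.0891 and 0.196 to 0.626, 0.702 and 0.833. This was a rise of 3.97-fold (log2 1.99 ± 0.32 SE, edgeR adjusted p = 0.00957) with an mRNA change of -0.16 (adjusted p = 0.899), so here the footprints alone moved. It was also the gene called in the most alternatives, 14 of 17. Ddit3, which encodes CHOP, the transcription factor of lasting ER stress, had 1, 2 and 8 footprint reads in control against 25, 21 and 46 in CPA1, and 9, 25 and 42 mRNA reads against 48, 71 and 178. Its occupancies were 0.0508, 0.124 and 0.335 in control and 0.908, 0.745 and 1.03 in CPA1, without overlap. Both its mRNA (log2 1.94) and its occupancy (log2 2.20 ± 0.47 SE, edgeR adjusted p = 0.0382) rose, the latter also in 6 of 16 alternatives, with log2 changes of 1.68 or more in all of them. Its occupancy call was lost without either control mRNA-seq library and without any 1 experiment.

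Ppp1r15a encodes GADD34, the stress-induced subunit of the phosphatase that acts on eIF2. Its occupancies were 0.724, 0.511 and 0.455 in control and 1.01, 1.15 and 1.42 in CPA1, again without overlap, yet the log2 change of 1.22 ± 0.29 SE did not pass the threshold (edgeR adjusted p = 0.0943). Its footprints (log2 2.08) and its mRNA (log2 0.86) both rose. In DESeq2 the occupancy change of Ppp1r15a passed (adjusted p = 0.0101), as it did with at least 10 reads per library. Ppp1r15b, which encodes the constitutive counterpart of GADD34, had a log2 occupancy change of 0.01 ± 0.28 SE, with the experiments at 0.22, -0.77 and 0.55.

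**Figure D2:**
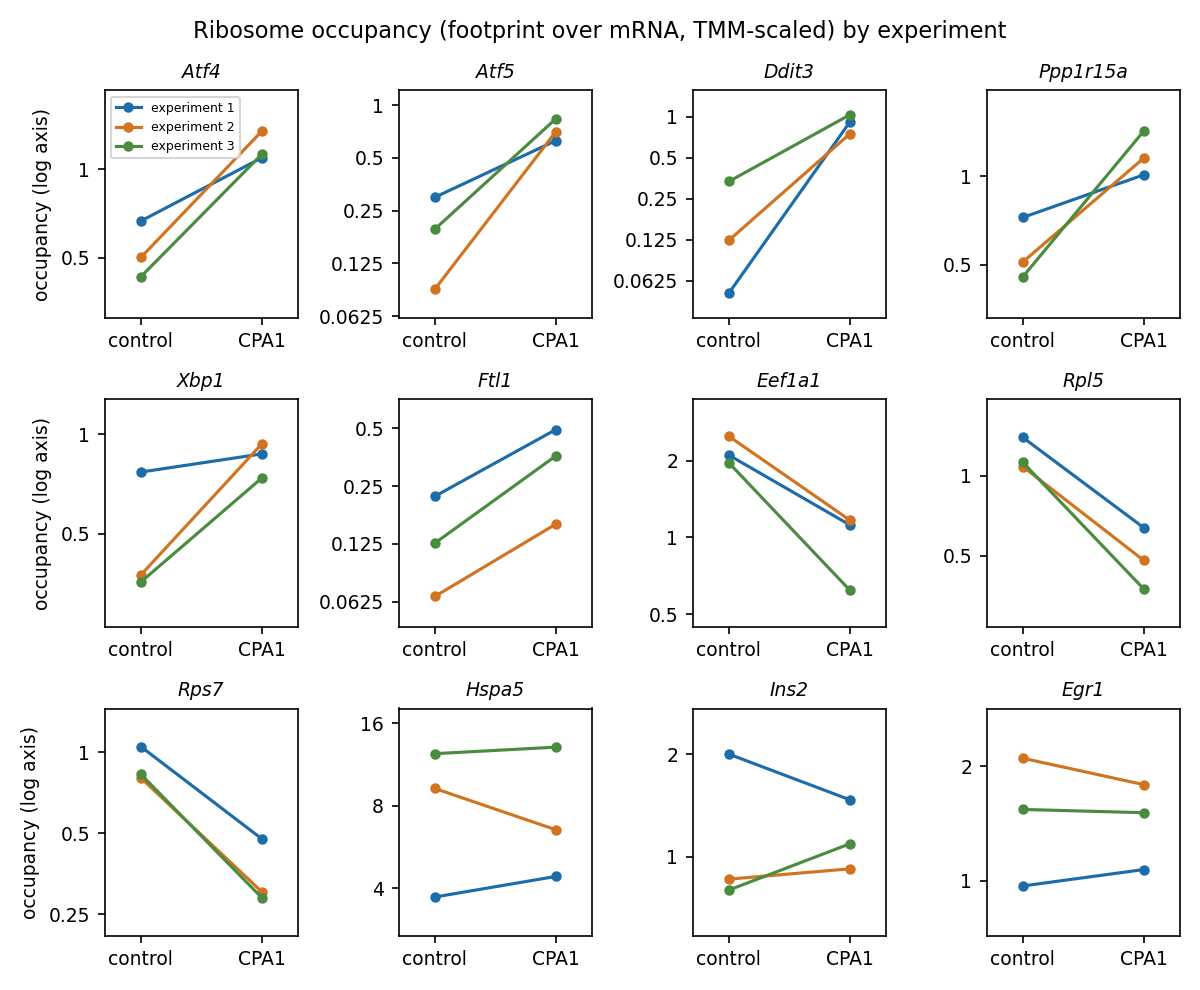
Ribosome occupancy (ratio of TMM-scaled footprint to mRNA counts, log axis with a range of its own in each panel) in control and CPA1 for 12 genes, with 1 line per experiment. The lines of Atf4, Atf5, Ddit3, Ppp1r15a, Xbp1 and Ftl1 climb and those of Eef1a1, Rpl5 and Rps7 descend in all 3 experiments, while those of Hspa5, Ins2 and Egr1 climb in some experiments and descend in others.

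The other members of the list, which are named after their values were seen, did not pass the occupancy test. Ifrd1, a transcriptional co-regulator, was at 0.88 ± 0.31 SE (log2) with all experiments above 0, and its footprints rose by 1.54. Slc35a4, a member of the nucleotide-sugar transporter family, was at 0.84, with -0.27, 0.53 and 1.72 in the experiments. Eprs, a tRNA synthetase, was at 0.24, Ibtk at 0.32 (but at -0.29 without the control mRNA-seq library of experiment 1), the secretase gene Bace1 at -0.37 and the amino acid transporter gene Slc7a1 at -0.39. Of the 11 members, 5 were above control in every experiment and 1 below, against 14.4% and 14% of all genes, and their median was 0.84 (log2), with 0.41, 0.53 and 1.38 in the experiments, against 0.05 for all genes. The list was chosen with earlier results of these data known, so its median is a description. Reads were counted over whole transcripts, so footprints on a uORF and on the main coding sequence are summed in these values.

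Outside that list, 5 genes rose in occupancy, namely Kmt5c, Cenpb, Jph3, Ftl1 and Gm20594. Kmt5c, a histone H4 methyltransferase, had 20, 15 and 38 footprint reads in control and 123, 35 and 351 in CPA1, against 9, 48 and 64 and 43, 39 and 60 mRNA reads. Its occupancy rose by 3.38 ± 0.62 SE (log2, edgeR adjusted p = 0.0138), and the values of 4.99, 2.26 and 23.4 in CPA1 lay above those of 1.02, 0.485 and 1.05 in control. Cenpb, which encodes a centromere protein, went from 0.319, 0.086 and 0.112 to 0.649, 0.281 and 0.281 (log2 1.38, edgeR adjusted p = 0.0143). Footprints of Cenpb rose by 0.96 (log2), with an mRNA change of -0.42 (edgeR adjusted p = 0.395). Its groups overlapped, since the lowest CPA1 values lay below the control of experiment 1, and the rise stands within each experiment. Kmt5c and Cenpb are the only called members of the list of 30 chromatin modifiers tested, against 0.103% of all genes that rose. That list was chosen with earlier results of these data known, so its share of calls is a description. Its median of 0.05 (log2) was that of all genes.

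Jph3 encodes a junctophilin, which ties the ER to the plasma membrane. It had 4, 6 and 12 footprint reads in control and 19, 11 and 8 in CPA1, and its occupancy rose by 2.09 ± 0.45 SE (log2, edgeR adjusted p = 0.0415). Scaled to depth, its footprints rose by 1.75 (log2), with an mRNA change of -0.35 (edgeR adjusted p = 0.741). It was called in 4 of 16 alternatives, the fewest of the 20 genes. Gm20594, a predicted gene of chromosome 6, rose by 1.83 ± 0.38 SE (log2, edgeR adjusted p = 0.0292). It had an occupancy of 0.0359, 0.0397 and 0.0204 in control and 0.0809, 0.0738 and 0.306 in CPA1, with experiment 3 far above the others. Its annotated transcript shares 81 stretches of 20 bases with annotated ribosomal RNA genes, and apart from Tmem38b no other gene tested shared 10 or more, so reads of ribosomal RNA can count towards it. Whether they did was not tested.

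Ftl1, the ferritin light chain, had occupancies of 0.221, 0.0665 and 0.126 in control and 0.491, 0.158 and 0.358 in CPA1. The groups overlapped because the experiments differ in level, yet the log2 changes were close at 1.15, 1.25 and 1.51, with a fitted rise of 1.33 ± 0.25 SE (edgeR adjusted p = 0.0138). Its mRNA change was -0.34 (adjusted p = 0.568). Ferritin mRNAs carry an iron-responsive element in the 5′ leader, a hairpin with the loop CAGTGN and an unpaired C ahead of it, to which iron regulatory proteins bind when iron is scarce. The elements of Ftl1 (chr7:45459782-45459805, minus strand) and of the heavy chain gene Fth1 (chr19:9982734-9982757, plus strand), both read from GRCm38.p6, are shown for comparison, with the unpaired C and the first 5 bases of the loop in capitals.
Ftl1: cttgCttcaaCAGTGtttgaacgg
Fth1: cctgCttcaaCAGTGcttgaacgg

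Fth1, looked up after the value of Ftl1 was seen, was at 0.90 ± 0.33 SE (log2), with -0.14, 1.24 and 1.29 in the experiments, and did not pass the test (edgeR adjusted p = 0.389). A C, any 5 bases and CAGTG occur on the sense strand in 7.96% of 16578 annotated 5′ leaders, so these letters are common in leaders.

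The cytosolic ribosomal protein genes had lower occupancy as a group. The list held 82 such genes with any read and is not complete, since Rps3a1 lies outside it. Of the 82, 79 were tested, and their median change was -0.59 (log2). It was -0.84, -0.54 and -0.46 in experiments 1, 2 and 3, where all genes had medians of -0.01, -0.04 and 0.10. In every experiment 68 of the 79 were below control and 0 were above it, against 14% and 14.4% of all genes. Single calls were fewer, with 5 falling at the adjusted threshold (0.154% of all genes) and 53 at an unadjusted p under 0.05 (3.48% of all genes). The median change was -0.67 for their footprints and -0.05 for their mRNA, and footprints fell for 44 of 79, against 2.16% of all genes, while 0 passed the mRNA test in either direction. Relative to all genes the median was -0.64, and it lay between -0.77 and -0.46 over the alternatives, the smallest when GC content and length were fitted as an offset.

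Rps7, a protein of the small subunit, had occupancies of 1.05, 0.803 and 0.828 in control and 0.477, 0.303 and 0.288 in CPA1. Its groups were well apart, and it fell to 0.391 of control (log2 -1.35 ± 0.23 SE, edgeR adjusted p = 0.0121). Rpl5, which binds the smallest ribosomal RNA, went from 1.39, 1.08 and 1.12 to 0.638, 0.481 and 0.376 and fell to 0.405 of control (edgeR adjusted p = 0.0138). Rpl4, Rpl23a and Rpl32 of the large subunit fell to 0.476, 0.463 and 0.481 of control, and Rps3a1 to 0.482. None of these had an mRNA change beyond 0.18 in size (log2). Without the control mRNA-seq library of experiment 1, the list's median relative to all genes was -0.53.

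Lower values were spread over both subunits. The 48 genes of the large subunit had a median of -0.58 (log2), with 39 below control in all experiments, and the 31 of the small subunit had a median of -0.64, with 29 below. At the other end of the list stood Rpl41 at 0.21, Rpl27 at 0.05, Rpl19 at 0.00 and Rpl36 at -0.12, named after their values were seen, and their standard errors of 0.24 to 0.29 reach across 0. Several ribosomal protein genes have near-identical copies elsewhere in the genome, to which the counting could assign reads. The list also takes in 2 related genes by their symbols, Rpl32l (-0.59) and Rps27l (-0.57).

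**Figure D3:**
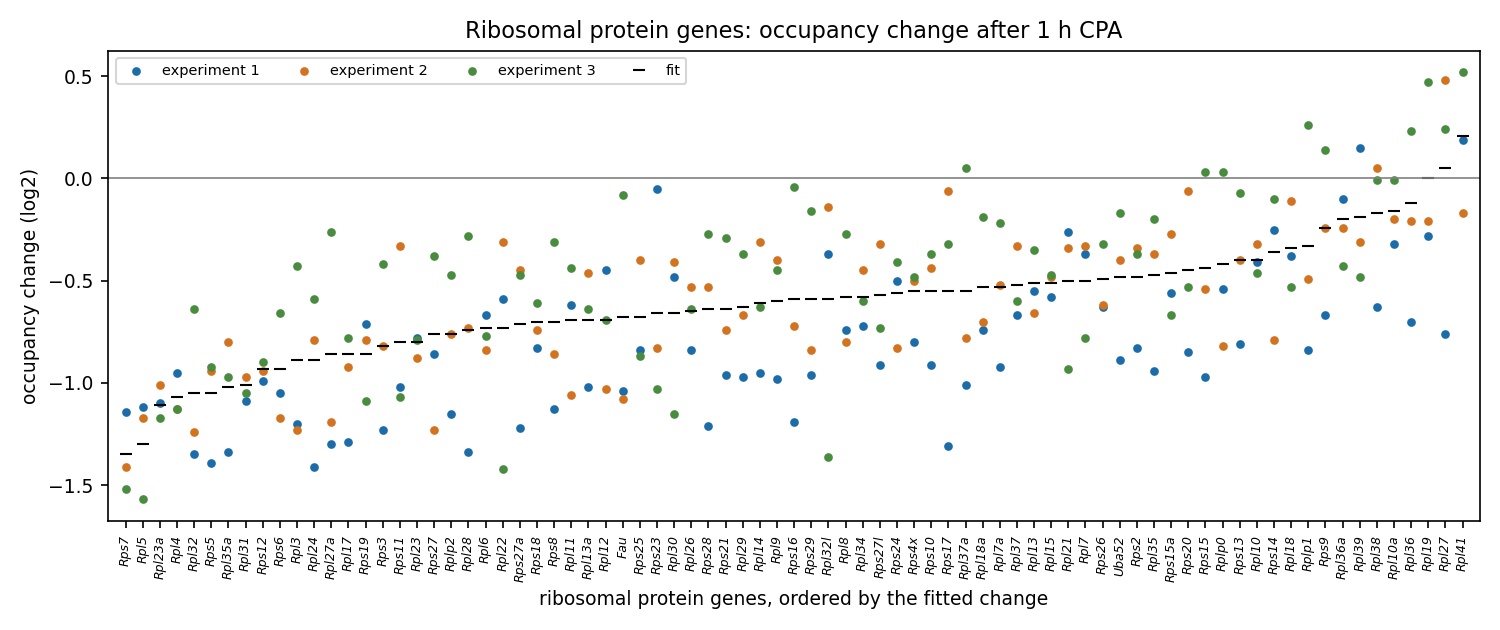
Change of ribosome occupancy (log2, CPA1 against control) of the 79 ribosomal protein genes, ordered by the fitted value (black dash), with 1 point per experiment. For 68 of the 79 genes all 3 points lie below 0, and the median of experiment 1 (-0.84) is lower than that of experiment 3 (-0.46).

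The TOP start of such mRNAs is shown for 6 genes of the lists, as 20 bases from a C at or within 5 bases of the annotated RefSeq start (GRCm38.p6), with the pyrimidine run in capitals. They are the 6 of these with the lowest occupancy change among genes whose run starts within 1 base of the annotated start: Eif3f (chr7:108934415-108934434, plus strand), Rpl32 (chr6:115808724-115808743, minus strand), Eef1a1 (chr9:78481706-78481725, minus strand), Rps6 (chr4:86857348-86857367, minus strand), Rack1 (chr11:48800360-48800379, plus strand) and Pabpc1 (chr15:36608954-36608973, minus strand).
Eif3f: CTCTCTTTCTCggcaagatg
Rpl32: CTTCTTCCTCggcgctgcct
Eef1a1: CTTCCCgagggtgggggaga
Rps6: CTCTTTTTCgtgacgcctcc
Rack1: CTTTTTCTCCacagggtcgt
Pabpc1: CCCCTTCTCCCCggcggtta

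A C followed by at least 4 pyrimidines was found there for 34 of 78 ribosomal protein genes (43.6%) and for 1493 of 7684 genes tested (19.4%). Within the ribosomal protein genes it made little difference to the change, with a median of -0.58 (log2) in the 34 genes with it and -0.59 in the 44 without. The 1452 genes with such a start in neither TOP list had a median of 0.02. Annotated starts can differ from the starts used in MIN6 cells, so a gene without a match may still have a TOP start.

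The 19 other TOP mRNAs tested had a median change of -0.69 (log2), with -0.64, -0.73 and -0.79 in the experiments and 13 below control in all 3. Eef1a1, the factor that brings aminoacyl-tRNA to the ribosome, had 6039, 7959 and 8503 footprint reads in control and 2052, 1400 and 1266 in CPA1. Its occupancies of 2.1, 2.49 and 1.96 in control and 1.12, 1.17 and 0.622 in CPA1 did not overlap, and it fell to 0.428 of control (log2 -1.22 ± 0.23 SE, edgeR adjusted p = 0.0138). Eef1b2, its nucleotide exchange factor, fell by 1.43 (log2, edgeR adjusted p = 0.0138), from 1.67, 0.968 and 0.694 to 0.585, 0.315 and 0.294. Tpt1, the translationally controlled tumour protein, fell from 0.588, 0.408 and 0.543 to 0.311, 0.202 and 0.195 (log2 -1.13).

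Eif3f, a subunit of initiation factor eIF3, fell from 1.69, 1.32 and 0.975 to 0.625, 0.569 and 0.548 (log2 -1.15, edgeR adjusted p = 0.0451). It was the 1 called gene of 42 initiation factors, whose median was -0.11, against 0.154% of all genes that fell. The 12 eIF3 subunits tested, a group formed after its value was seen that includes it and leaves out the copy Eif3j2 (-0.15), had a median of -0.42, with 5 below and 0 above control in all experiments against 14% and 14.4% of all genes. The occupancy change of Eef2, the translocation factor, was -0.83 ± 0.22 SE (log2) with all 3 experiments below 0, and did not pass (edgeR adjusted p = 0.177). It passed in 5 of 17 alternatives, with the smallest adjusted p, 0.00894, in DESeq2. Pabpc1, the poly(A)-binding protein, was at -1.13 with -0.23, -0.92 and -2.46 in the experiments. Its footprints fell by 1.99 (log2), and its mRNA change was -0.86 (edgeR adjusted p = 0.11).

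The remaining falls, Sorl1 and Tapt1, lay outside translation. Sorl1, a sorting receptor of the secretory and endosomal route, had 340, 418 and 388 footprint reads in control and 71, 66 and 50 in CPA1, with 61, 85 and 167 and 115, 81 and 99 mRNA reads. Scaled to depth, its footprints fell to 0.323 of control. Its occupancy fell from 2.55, 7.64 and 4.09 to 1.08, 2.05 and 2.02 (log2 -1.37 ± 0.28 SE, edgeR adjusted p = 0.026). Tapt1, which encodes a membrane protein, fell by 2.84 ± 0.62 SE (log2), but on 2, 3 and 1 footprint reads in CPA1 against 17, 22 and 20 in control.

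Most footprint calls came without a call in occupancy, 136 of the 144 rises among them. Footprints rose for 144 genes (1.85%) and fell for 168 (2.16%), and mRNA rose for 35 (0.449%) and fell for 3 (0.0385%). Of the 35 genes whose mRNA rose, 34 also rose in footprints, and 2 of them, Atf4 and Ddit3, rose in occupancy. The immediate early genes, which are transcribed within minutes of a signal, are of this kind. Of 26 with any read 18 were tested, with medians of 1.79 for mRNA, 2.27 for footprints and 0.37 for occupancy (log2), and 12 rose in mRNA, 14 in footprints and 0 in occupancy. In occupancy, 7 of the 18 were above control in all 3 experiments and 4 below, against 14.4% and 14% of all genes. Smaller rises in occupancy are therefore not excluded for this list. Egr1, a zinc finger transcription factor, rose by 2.26 in mRNA and 2.19 in footprints and had an occupancy change of -0.06 ± 0.43 SE. Dusp5, a MAP kinase phosphatase, was at 0.69 in mRNA, 0.55 in footprints and -0.14 in occupancy and passed none of the 3 tests.

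**Figure D4:**
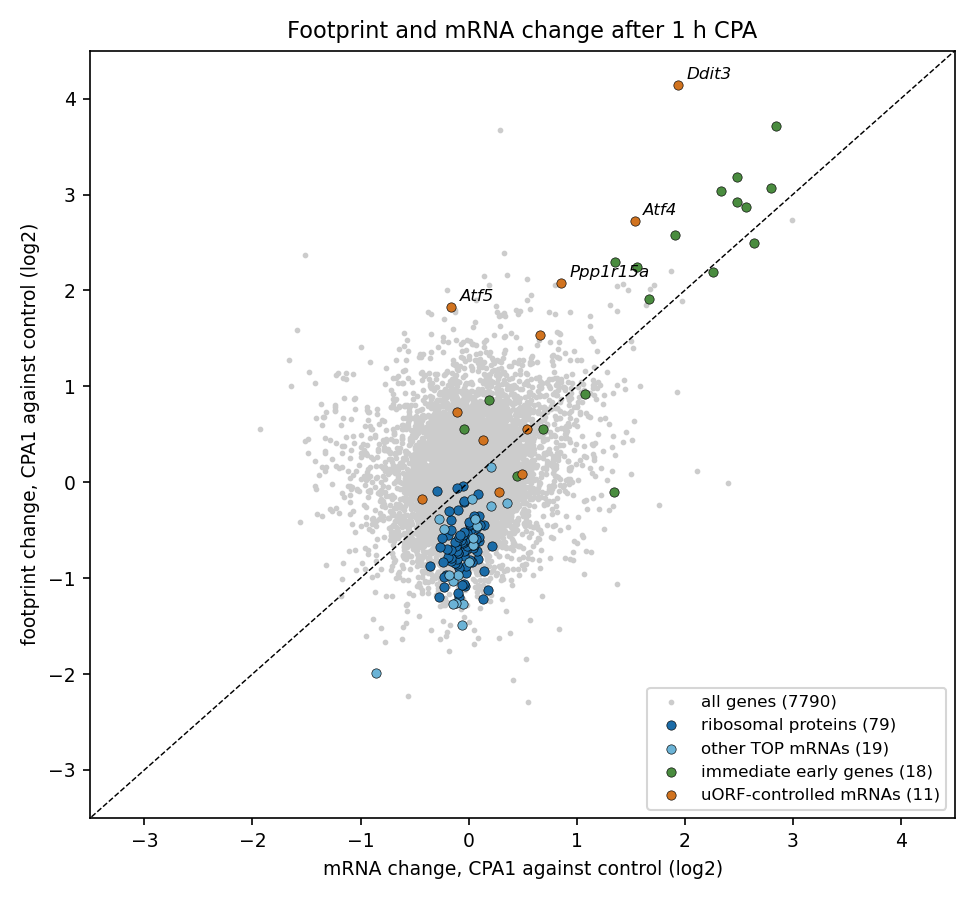
Change of footprints against change of mRNA (both log2, CPA1 against control) for 7790 genes, with 4 lists in colour and equal change as a dashed line. Ribosomal protein and other TOP mRNAs lie mostly below the line near an mRNA change of 0, most immediate early genes lie near it at the upper right, and Atf4, Atf5, Ddit3 and Ppp1r15a lie above it.

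No gene in the list of ATF4 and CHOP targets passed the occupancy test. Atf5, Ddit3 and Ppp1r15a were counted with the uORF-controlled mRNAs and are not in this list. Of 25 tested, 3 rose in mRNA (0.449% of all genes), 4 in footprints (1.85%) and 0 in occupancy (0.103%), with a median occupancy change of -0.02 (log2). The amino acid transporter gene Slc7a5 was at 0.11 and Psat1, an enzyme of serine synthesis, at -0.32. Among the 20 cytosolic tRNA synthetases, which ATF4 also induces, the median was -0.20, with 8 below and 2 above control in all experiments (14% and 14.4% of all genes), and Gars was at -0.36 and Sars at -0.26.

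The 24 ER chaperones and oxidoreductases, the classical targets of the unfolded protein response, had a median of -0.19 (log2) in occupancy, and 0 passed that test. Their footprints fell for 6 of 24, against 2.16% of all genes. Hspa5, the chaperone BiP, had occupancies of 3.71, 9.25 and 12.4 in control and 4.41, 6.54 and 13.1 in CPA1. The change within an experiment was small beside the difference between experiments (log2 -0.07 ± 0.23 SE, and 0.10 with library totals). P4hb, a protein disulphide isomerase, was at -0.46 in occupancy, and its footprints fell by 0.63.

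Among the 20 genes of ER-associated degradation and the stress sensors the median was 0.03 (log2). Vcp, the ATPase that draws proteins out of the ER, was at -0.26 and Sel1l, part of the ligase complex, at -0.25 with the experiments at 0.73, -0.79 and -0.70. Xbp1, whose mRNA is spliced by the sensor IRE1, had occupancies of 0.768, 0.376 and 0.358 in control and 0.871, 0.932 and 0.736 in CPA1. The occupancy change of Xbp1, 0.88 ± 0.25 SE (log2), did not pass in edgeR (adjusted p = 0.238) and passed in DESeq2 (adjusted p = 0.0315). Its footprints rose by 1.19 (log2) with an mRNA change of 0.30. Spliced and unspliced Xbp1 mRNA are not separated in gene counts.

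Insulin and granule cargo had 0 occupancy calls among 19 genes tested. Their median was 0.07 (log2), or 0.02 relative to all genes, and the latter was -0.17 without the control mRNA-seq library of experiment 2 and 0.14 without that of experiment 1. In all experiments 2 were above and 3 below control, where 14.4% and 14% of all genes were. Ins2 had occupancies of 2, 0.859 and 0.798 in control and 1.47, 0.921 and 1.09 in CPA1, and Ins1 of 2.82, 1.1 and 0.943 and 2.02, 1.18 and 1.49. Both were lower in experiment 1 and higher in experiments 2 and 3, and the fitted changes of 0.03 ± 0.26 SE and 0.09 ± 0.25 SE have a sign that depends on the libraries kept. Iapp, which encodes amylin, was at 0.12. The ends of the list, named after their values were seen, were Nnat (neuronatin) at 0.78 ± 0.27 SE, the granule membrane protein gene Ptprn2 at -0.58 ± 0.22 SE and the prohormone-processing enzyme gene Cpe at -0.55 ± 0.21 SE, with edgeR adjusted p of 0.365, 0.428 and 0.429.

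The 13 β-cell transcription factors tested had a median of 0.04 (log2) and 0 occupancy calls, with Pdx1 at 0.03 ± 0.22 SE and Insm1 at 0.07 ± 0.22 SE. The highest members, named after their values were seen, were Mafa, an activator of the insulin genes, at 0.78 ± 0.25 SE and Neurod1, another such activator, at 0.60 ± 0.26 SE. Mafa was at 0.34, 0.88 and 1.06 and Neurod1 at 0.48, 0.41 and 1.01 in the experiments, above control in each, but neither passed (unadjusted p = 0.0043 and 0.0325, edgeR adjusted p = 0.32 and 0.526). Footprints rose for Mafa (log2 0.94) and for Foxa2 (log2 1.00), 2 of 13 genes against 1.85% of all genes.

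**Figure D5:**
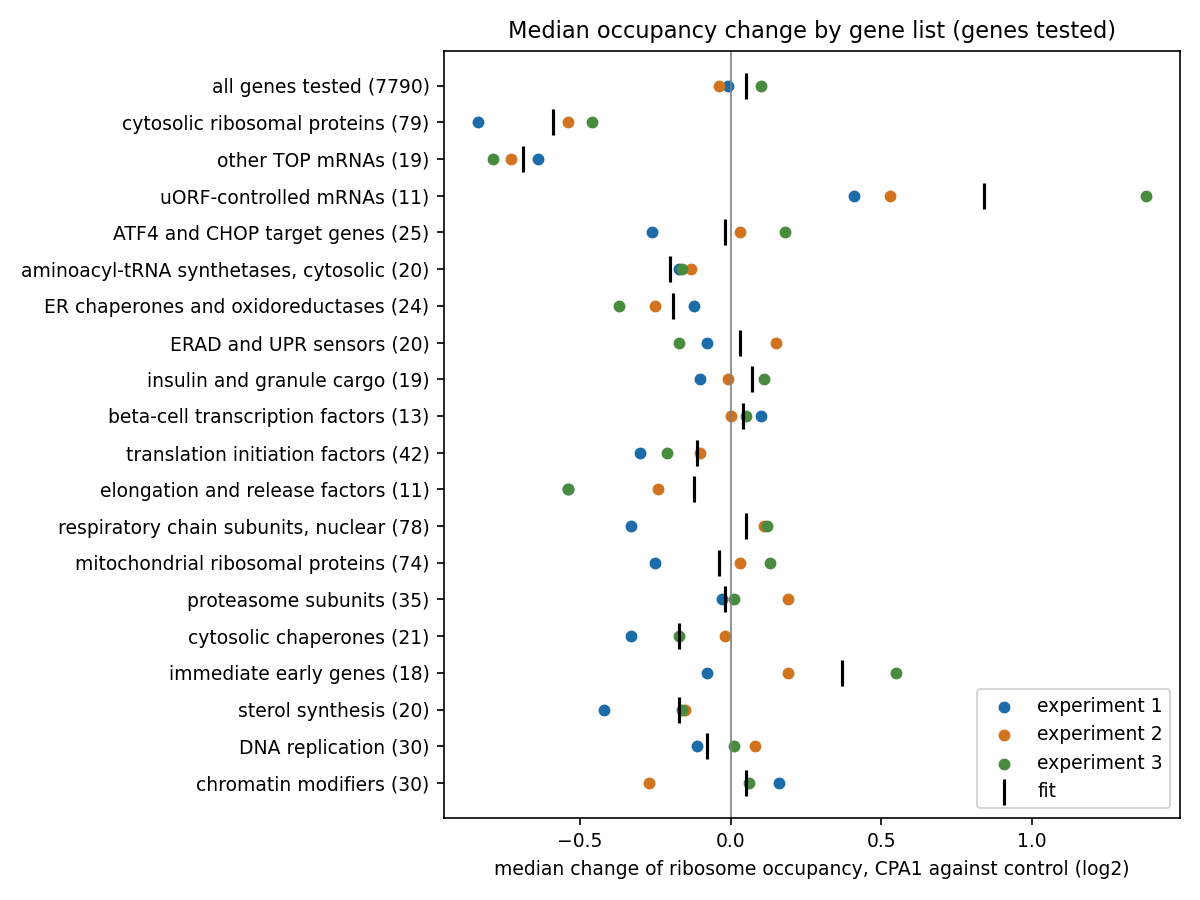
Median change of ribosome occupancy (log2, CPA1 against control) of all genes and of 19 gene lists, with 1 point per experiment and the fitted value as a bar. Ribosomal protein and other TOP mRNAs lie below and uORF-controlled mRNAs above all other lists in the fitted value.

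The remaining lists held no called gene apart from Eef1a1 and Eef1b2 among the 11 elongation and release factors (median -0.12, log2). Medians were 0.05 for 78 respiratory chain genes (Atp5b at -0.16 and Atp5a1 at -0.26), -0.04 for 74 mitochondrial ribosomal proteins (Mrpl17 at -0.51 and Mrpl28 at -0.43) and -0.02 for 35 proteasome subunits (Psmb4 at 0.03 and Psmb1 at -0.29). Of the mitochondrial ribosomal proteins 11 were above and 9 below control in all experiments, shares near the 14.4% and 14% of all genes. The 21 cytosolic chaperones had a median of -0.17, with Hspa8, the constitutive chaperone, at -0.63 ± 0.22 SE and Hsp90aa1, a heat-inducible one, at 0.44 ± 0.22 SE. Relative to all genes, the median of the elongation and release factors moved from -0.17 to -0.48 and that of the mitochondrial ribosomal proteins from -0.09 to 0.15 with at least 10 reads per library, and that of the cytosolic chaperones from -0.21 to 0.00 without experiment 3. Sterol synthesis (20 genes) was at -0.17 and DNA replication (30 genes) at -0.08, with Pcna at -0.15 and Mcm6 at -0.37.

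Over all genes the number of upstream ATGs went with small differences. Genes with 0, 1, 2 or 3, and 4 or more ATGs in the 5′ leader (4090, 1626, 1117 and 851 genes) had median changes of 0.03, 0.06, 0.10 and 0.09 (log2). In experiment 2 these medians were -0.03, -0.03, -0.06 and -0.08, so the order did not hold in each experiment. Of the 8 genes that rose, 1 (Cenpb) had 0 upstream ATGs and 7 had 1 or more. Of the 12 that fell, 7 had 0, 5 had 1 and 0 had more, where the class with 0 holds 4090 of 7684 genes. The 985 genes whose product begins with a hydrophobic stretch, as signal peptides and signal anchors do, had a median of -0.09 against 0.07 for the other 6699, lower in each experiment (-0.19, -0.19 and 0.04 against 0.02, -0.02 and 0.10), and 20.1% of them were below control in all experiments against 13.1%. Coding length had no steady relation, with medians of 0.07, 0.02, 0.07, 0.08 and -0.00 over 5 classes of equal size from the shortest to the longest.

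After 18 h of CPA the medians of some lists were other than at 1 h, while that of the eIF3 subunits was -0.37 beside -0.42 (log2). The ribosomal protein genes had a median occupancy change of 0.13 (log2) against control at 18 h beside -0.59 at 1 h, the other TOP mRNAs -0.34 beside -0.69, and the uORF-controlled mRNAs 0.34 beside 0.84. The control libraries are shared, so the comparisons are not independent. Tested directly, occupancy in CPA18 differed from CPA1 for 2 genes (0.0257%), Gm20594 and Rps19, the latter named after its value was seen. No member of the other TOP or uORF lists passed this test. Rps19, a small-subunit protein, was at -0.86 at 1 h and 0.38 at 18 h, a difference of 1.24 ± 0.23 SE (edgeR adjusted p = 0.0384). At an unadjusted p under 0.05, 60 of the 79 genes for ribosomal proteins had more occupancy in CPA18 than in CPA1, against 4.22% of all genes. This difference and the change at 1 h use the same CPA1 libraries, so they are not independent. Atf4 was at 0.58, Atf5 at 1.87 and Ddit3 at 1.73 after 18 h (log2, against control), and for none of them did CPA18 and CPA1 differ by the test (edgeR adjusted p = 0.544, 0.957 and 0.775). Of the other genes that rose at 1 h, Ftl1 was at 1.88, Kmt5c at 4.97, Cenpb at 1.40, Jph3 at 1.48 and Gm20594 at 4.35. Their changes at 1 h were 1.33, 3.38, 1.38, 2.09 and 1.83.

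The standard error of the change was smaller for genes with more footprint reads. With genes in 4 classes of about equal size by mean footprint count, the lowest class (at most 11 reads) had a median standard error of the change of 0.659 (log2) and the highest class (at least 50.3 reads) one of 0.28. The highest class held 16 of the 20 calls. Smaller changes of low genes were not detectable at this depth.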

How the data were processed

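The authors made poly(A) mRNA-seq libraries from fragmented RNA and Ribo-seq libraries from monosomes after RNase digestion of lysates from cells washed with cycloheximide, which arrests elongating ribosomes, aligned the reads to mouse transcripts (Bowtie2 and GRCm38, per the submitters' processing notes), and deposited counts per RefSeq transcript. The deposited RPM (counts over the library total) and RPKM (RPM over transcript length) were made by the authors from these counts, and transcript lengths were deposited beside them. Of 30741 transcripts, 30232 matched RefSeq with version, 478 without and 31 not at all.

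Counts were summed to genes and tested with edgeR 4.0.16 (R 4.3.3): glmQLFit and glmQLFTest, TMM scaling, assay, treatment, their interaction, and experiment within assay as a block. The labels give the replicate number as a batch. Deviations from group means correlated between libraries of 1 experiment at a mean r of 0.529 between mRNA-seq libraries, 0.134 between Ribo-seq libraries and 0.142 between assays (lowest 0.006). Occupancies per experiment are ratios of TMM-scaled counts. Alternatives used DESeq2 1.42.0 and limma 3.58.1 on log2(RPKM + 0.5) and log2(RPKM + 1), other scalings, filters and subsets of libraries. Scripts were tested on simulated data.

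Members, lists and tests were chosen with earlier results of these data known. Named are all called genes, for each list its called members (at most 4) or else the 2 with the most control footprints, and 14 genes set by name (Atf4, Ddit3, Ppp1r15a, Ppp1r15b, Atf5, Ins1, Ins2, Hspa5, Xbp1, Eef1a1, Eef2, Tpt1, Pabpc1, Lars2). Some genes that this rule names are not reported here. p-values measure the spread of the treatment changes between the 3 experiments within each assay, not of their levels. That spread was estimated over all 18 libraries, CPA18 included, with information shared across genes. Upstream ATGs, starts and motifs were read from the RefSeq annotation and genome of GRCm38.p6. A product was taken to begin with a hydrophobic stretch where 12 residues within its first 35 averaged at least 2 on the Kyte-Doolittle scale.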

Additional observations from a re-analysis of the deposited data

Results flagged for a closer look

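The occupancy change of 2 genes differed between the times of treatment by the test of the difference itself (edgeR, CPA18 against CPA1). The control libraries cancel out of this difference, and the changes from control at 1 h use the same CPA1 libraries. Gm20594 was 2.52 higher at 18 h than at 1 h (log2, ± 0.37 SE, n = 3 experiments, adjusted p = 0.00312), with changes from control of 4.35 and 1.83. Reads of ribosomal RNA can count towards Gm20594, as described above, and whether they did was not tested. Rps19 was 1.24 higher (log2, ± 0.23 SE, adjusted p = 0.0384), with changes from control of 0.38 and -0.86. Lars2, whose share of mRNA-seq reads varied most between libraries, was at 3.41 at 18 h and 0.95 at 1 h, which did not differ by this test (adjusted p = 0.226). With at most 3 libraries in a group, no test for outlying values within groups was made.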

How the results depend on the processing

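Of 17 alternatives, 16 were planned and 1 (without the control mRNA-seq library of experiment 1) was chosen after seeing the data. Against 20 called genes, library totals gave 7, no filter on low counts 58 (37 up, 21 down, 17176 genes), the control and CPA1 libraries alone 12, either control mRNA-seq library left out 11, limma with either pseudocount 2 and DESeq2 41 (13 up, 28 down). Without the replicate block 0 genes were called, with 216 at an unadjusted p under 0.05, so the calls depend on the pairing by experiment. Leaving out 1 experiment gave 0 to 21 calls, with residual degrees of freedom falling from 8 to 4. The ribosomal protein median relative to all genes, -0.64, was -0.46 with the offset for GC content and length, and -0.69 to -0.56 with 1 experiment left out. Genes that were not called and lie near 0 changed sign: Hspa5 to 0.10 with library totals and limma, to 0.00 without the block and to 0.03 without the control mRNA-seq library of experiment 2, Egr1 to 0.14 and 0.13, Pcna to 0.01, Dusp5 to 0.06, Ibtk to -0.29, Ins1 to -0.06, Slc7a5 to -0.10, and Ins2 (-0.03, -0.06, -0.02, -0.05, -0.10), Insm1 (-0.01, -0.23), Pdx1 (-0.04, -0.05, -0.03, -0.02, -0.10), Psmb4 (-0.04, -0.05, -0.03) and Ppp1r15b (-0.07, -0.08, -0.06, -0.00, -0.10) under other scalings, filters, offsets or subsets. With 1 experiment left out, Hspa5 ranged from -0.23 to 0.16, Sel1l from -0.77 to 0.03, Ins2 from -0.19 to 0.26, Ins1 from -0.20 to 0.37, Insm1 from -0.05 to 0.25, Pdx1 from -0.02 to 0.09, Atp5b from -0.32 to 0.02, Psmb4 from -0.12 to 0.17, Egr1 from -0.18 to 0.05, Ppp1r15b from -0.29 to 0.37, Lars2 from -0.38 to 2.09 and Ibtk from -0.05 to 0.52. The causes were not tested.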
